A study of Mus musculus with 8 samples.

Results

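A set of 10 genes of the bone morphogenetic protein (BMP) pathway were followed through the first days of reprogramming of mouse embryonic fibroblasts (MEFs). They are the ligand genes Bmp2 and Bmp4, the receptor gene Bmpr1a, the inhibitor genes Grem1, Bambi and Smad6, and the Id genes Id1, Id2, Id3 and Id4. The genes were picked by name, and all 10 were found among the 32108 genes of the deposited table and passed its filter on low values. The cells were 4F2A MEFs from 13.5-dpc homozygous embryos labelled male, grown in KnockOut DMEM with serum replacement, 1000 U/mL LIF and 2 µg/mL doxycycline from day 0. 4F2A cells carry a doxycycline-inducible cassette of the 4 factors Oct4, Sox2, Klf4 and c-Myc. RNA was taken on days 2, 4, 6 and 8 (D2, D4, D6 and D8), with 2 libraries a day and 8 in all. Doxycycline was present in every library, no sample of day 0 or without doxycycline was analysed here, and each comparison therefore sets a later day of induction against an earlier one. The titles call all 8 samples "Ctr", which the labels do not explain.

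BMP ligands are secreted dimers that bind type I receptors such as BMPR1A together with type II receptors. The active receptors phosphorylate SMAD1, SMAD5 and SMAD9, which join SMAD4, enter the nucleus and switch on target genes, among which the Id genes are the best known. Gremlin 1, the product of Grem1, binds BMP2 and BMP4 outside the cell and keeps them from their receptors, BAMBI is a membrane pseudoreceptor that lacks a kinase domain, and SMAD6 is an inhibitory SMAD that acts inside the cell. Id proteins have a helix-loop-helix region for pairing with other proteins but no DNA-binding basic region, so they hold E proteins and other bHLH factors off DNA. In mouse embryonic stem cells, BMP4 and Id proteins act with LIF to hold back differentiation.

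The libraries held 19409936 to 20161021 counted reads each. The values are counts per 1000000 reads (CPM). A count of 0 leaves room for up to 3 reads, or 0.149 to 0.155 CPM, and this floor covers counting error only. The fibroblast markers fitted the label, with none of its 10 listed markers under 1 CPM in every library and Col1a1 at 10848 to 18029 CPM, while 8 of 10 pluripotency markers stayed under 1 CPM in every library and Nanog was at 0.252 to 0.569 CPM. None of 8 macrophage and haematopoietic markers and of 7 smooth muscle markers was under 1 CPM in every library either. The macrophage and haematopoietic markers summed to 60.5 to 93.1 CPM, and the fibroblast markers to 32181 to 48276 CPM. Xist, the transcript of the inactive X chromosome, was at 702 to 1238 CPM and the Y-linked Ddx3y at 0.0682 to 0.333 CPM, which goes against the label of male embryos in all 8 libraries. No library stood apart from the other of its day in this respect. Nothing in the labels states whether same-day libraries are separate cultures, so p-values measure only the spread between these libraries, which may be technical. The squared difference of same-day libraries, relative to that of counting error, averaged 1.38 per gene on D2. It averaged 5.61 on D4, 3.76 on D6 and 4.23 on D8, so the D2 libraries differed least. The p-values below use a spread pooled over all days.

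All 4 Id genes of the set rose between D2 and D4, and their coding sequences were compared. The following stretches of their coding sequences, 123 bases each and in frame, come from the GENCODE M21 transcripts (GRCm38), and capitals mark the 72 bases that are the same in all 4 genes. The stretch encodes the helix-loop-helix region, the most alike region of the family.
Id1: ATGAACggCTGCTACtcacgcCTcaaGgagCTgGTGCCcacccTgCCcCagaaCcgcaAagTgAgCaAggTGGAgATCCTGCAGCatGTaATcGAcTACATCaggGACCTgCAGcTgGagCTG
Id2: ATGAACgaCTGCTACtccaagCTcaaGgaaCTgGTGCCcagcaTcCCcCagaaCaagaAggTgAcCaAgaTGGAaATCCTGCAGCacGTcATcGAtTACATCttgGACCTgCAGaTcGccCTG
Id3: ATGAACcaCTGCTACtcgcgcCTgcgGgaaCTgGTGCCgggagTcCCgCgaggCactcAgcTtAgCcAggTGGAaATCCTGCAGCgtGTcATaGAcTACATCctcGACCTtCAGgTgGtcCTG
Id4: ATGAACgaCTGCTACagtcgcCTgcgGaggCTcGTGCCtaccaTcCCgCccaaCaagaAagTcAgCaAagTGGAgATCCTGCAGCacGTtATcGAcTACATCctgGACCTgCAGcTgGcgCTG
Within this stretch the pairs of genes were 69.9% to 79.7% identical, and over the whole coding sequences the longest run of bases shared by any pair was 17. The coding sequences hold 357 (Id3) to 483 (Id4) bases, against 1160 (Id1) to 3849 (Id4) bases in all annotated exons. Untranslated exons and the rest of the genome were not compared, so how far reads can be told apart was not tested. All values of Id1 and Id3 came out as whole reads, within a small tolerance for rounding, in 8 of 8 libraries, those of Id2 in 4 and those of Id4 in 2. Where the fractions of a read in Id2 and Id4 come from was not tested. Reads of Bmp4 came out whole in 1 of 8 libraries, those of Bmpr1a in 5, those of Grem1 in 7, and those of Bmp2, Bambi and Smad6 in all 8.

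The 4 Id genes, Bmp2 and Bmpr1a were higher on D4 than on D2, and Grem1 was lower. On the log2(CPM + 1) scale and in the limma fit over all genes, a gene was called at a Benjamini-Hochberg adjusted p under 0.05, and 6 of the 10 genes were called higher and 1 lower. Over all 15358 tested genes, 40.9% were called higher and 21.7% lower between these days. Between D6 and D4, Id4 and Smad6 were called higher, and Bmp4, Grem1 and Id3 lower, 2 and 3 of the 10 genes against 25.2% and 12.6% of all tested genes. Without D4 replicate 1, D6 replicate 1 or D6 replicate 2 the count of higher genes was 1, and the count of lower genes was 6 with median-of-ratios scaling and 5 with quantile normalization. Of all 15358 tested genes, 2984 and 2942 were called lower for D6 against D4 under these scalings, in that order, against 1928 as deposited. Between D8 and D6, 0 of 10 genes were called in limma, against 4.72% of all tested genes called higher and 4.39% called lower. At an unadjusted p under 0.05 in limma, Bmpr1a and Id4 were higher and Bmp4 lower on D8 than on D6. Their adjusted p in limma were 0.083, 0.10 and 0.10, and the share of all tested genes at the unadjusted level was not taken. Over the whole span, D8 against D2, 6 genes were called higher (Bmp2, Bmpr1a and the 4 Id genes) and 2 lower (Bmp4 and Grem1), against 47.3% and 23.1% of all tested genes. A limma F test of any difference between days called 9 of the 10 genes, all but Bambi, and 80.4% of all tested genes.

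**Figure D1:**
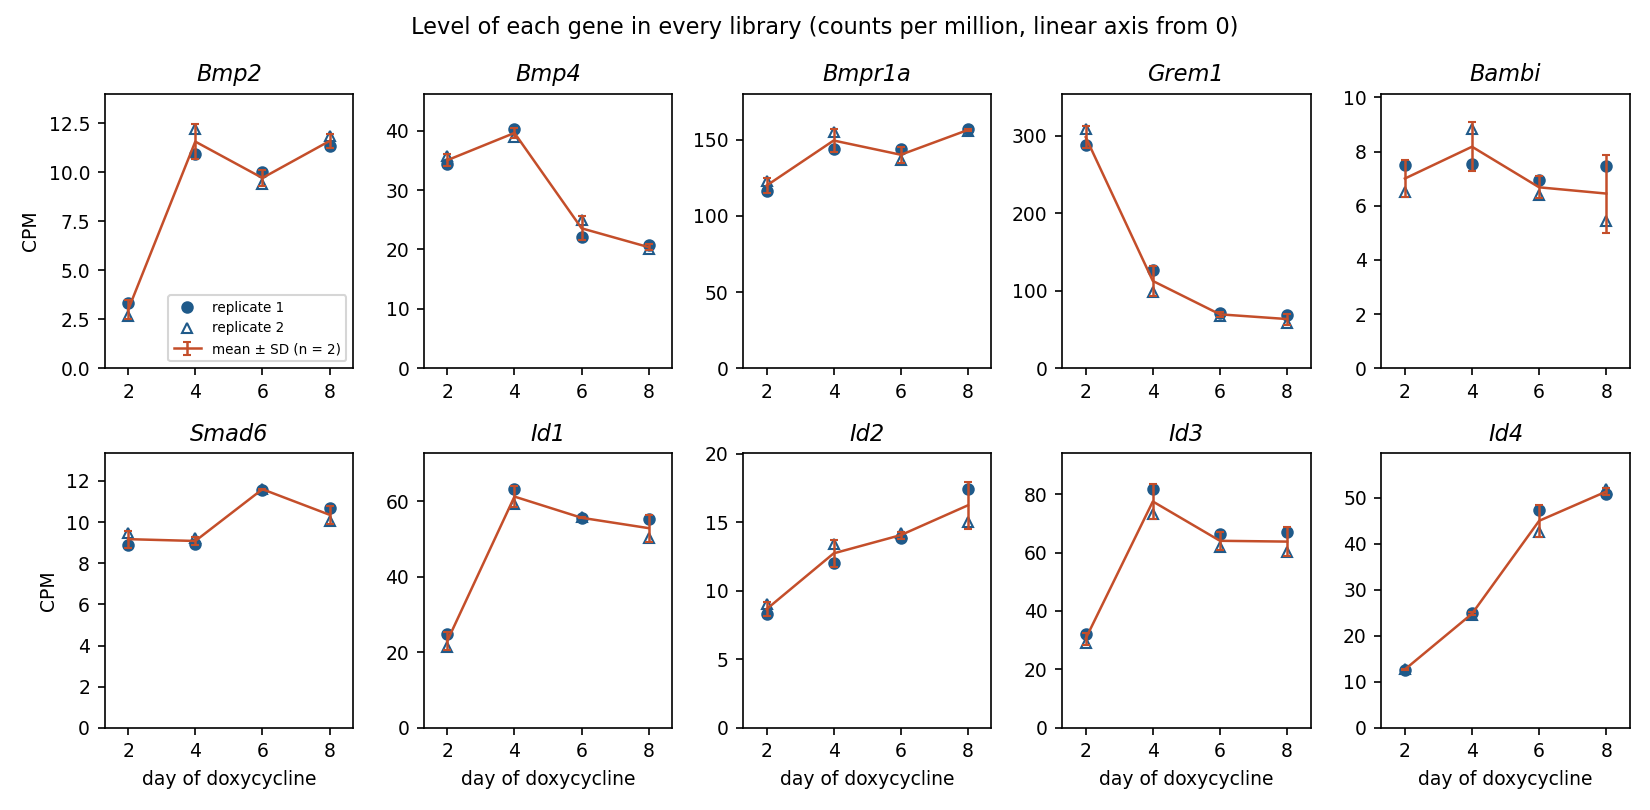
Level of each of the 10 genes in CPM (linear axis from 0) by day of doxycycline. Points are the 2 libraries of a day, and lines join the means with bars of 1 SD (n = 2). Bmp2, Id1 and Id3 stand higher on D4 than on D2 and stay near that level, Id4 climbs to 45.0 CPM on D6 and 51.3 CPM on D8, and Grem1 drops to 113 CPM on D4 and 63.5 CPM on D8.

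The tested genes as a whole shifted slightly upward. The median change of all tested genes on the log2(CPM + 1) scale was 0.11 for D4 against D2, 0.07 for the step to D6, -0.00096 for the step to D8 and 0.17 for D8 against D2. Of the calls for D4 against D2, 65.3% were higher as deposited, while scaling by the median of ratios gave 52.6% and quantile normalization 47.1%. In the same order the shares were 66.7%, 46.9% and 47.7% for D6 against D4, and 67.2%, 50.9% and 45.1% for D8 against D2. Small changes are therefore given also relative to the median of all tested genes. In 81.3% of all tested genes the libraries of D4 and D2 did not overlap. That share was 69.0% for D6 against D4, 55.8% for D8 against D6 and 85.7% for D8 against D2.

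Bmp2 (chr2:133552159-133562885, plus strand, GRCm38), which encodes a ligand of BMPR1A, was the ligand gene of this set that rose. It had 3.32 and 2.64 CPM on D2, 10.9 and 12.2 CPM on D4, 9.99 and 9.41 CPM on D6, and 11.3 and 11.8 CPM on D8. Both D2 libraries lay below all the others, and the D8 libraries fell within the range of D4. Bmp2 averaged 11.6 ± 0.882 CPM on D4 and 2.98 ± 0.483 CPM on D2 (SD, n = 2 each), a ratio of 3.88 and a log2 change of 1.66 ± 0.11 (SE; limma, adjusted p = 2.8e-08). That change was 1.55 above the median of all genes. From D4 on no step was called as deposited: the log2 change was -0.23 for D6 against D4 (limma, adjusted p = 0.12) and 0.23 for D8 against D6 (adjusted p = 0.20). Under both other scalings Bmp2 was called lower on D6 than on D4 in limma. The log2 change was -0.30 after median-of-ratios scaling (adjusted p = 0.048) and -0.35 after quantile normalization (adjusted p = 0.026). D8 and D4 differed by 0.00 on the log2 scale, with a 95% interval of -0.23 to 0.24.

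Bmp4 (chr14:46383520-46390669, minus strand), the other ligand gene, moved later and downward. Its libraries had 34.3 and 35.7 CPM on D2, 40.2 and 39.0 CPM on D4, 22.1 and 25.0 CPM on D6, and 20.7 and 20.05 CPM on D8. The D6 and D8 libraries all lay below those of D2 and D4. Bmp4 averaged 23.6 ± 2.03 CPM on D6 and 39.6 ± 0.858 CPM on D4 (SD, n = 2 each), and the log2 change was -0.73 ± 0.07 (SE; limma, adjusted p = 7.5e-06). On D8 it stood at 0.582 of its D2 level (log2 change -0.75, limma adjusted p = 6.9e-07). The small D4 against D2 change of 0.17 missed the threshold (adjusted p = 0.052) and was past it under 4 of 16 alternative settings, where the adjusted p ranged over all 16 from 0.035 to 0.85. Levels per kilobase of exon, with all annotated exons of a gene merged, allow a rough comparison of different genes. By this measure Bmp4 stood at 15.6 CPM per kb and Bmp2 at 0.839 CPM per kb on D2. On D8 Bmp4 stood at 9.07 and Bmp2 at 3.26 CPM per kb. Gm15217, a gene on the other strand, shares 89 exon bases with Bmp4 and had 0.205 to 0.852 CPM, and whether strand was used in counting is not given in the sources used here.

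Bmpr1a (chr14:34410734-34503341, minus strand), the gene of the type I receptor for both ligands, had the smallest change of the 7 genes called for D4 against D2. It had 116 and 123 CPM on D2, 144 and 155 CPM on D4, 144 and 136 CPM on D6, and 157 and 156 CPM on D8. Both D2 libraries were the lowest of the 8. Bmpr1a averaged 149 ± 7.68 CPM on D4 and 120 ± 4.67 CPM on D2 (SD, n = 2 each), a log2 change of 0.32 ± 0.05 (SE; limma, adjusted p = 1.8e-04) that was 0.21 above the median of all genes. For D8 against D2 the log2 change was 0.38 (limma, adjusted p = 2.4e-05) as deposited and 0.19 after median-of-ratios scaling (adjusted p = 0.0073). Its steps between D4, D6 and D8 were not called as deposited. After median-of-ratios scaling Bmpr1a was called lower on D6 than on D4 (log2 change -0.17, limma adjusted p = 0.027). The annotated antisense gene Gm17110 shares 290 exon bases with Bmpr1a.

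Grem1 (chr2:113746164-113758646, minus strand), the secreted inhibitor of both ligands, had the largest fall of the 10 genes. Its libraries had 288 and 308 CPM on D2, 126 and 98.9 CPM on D4, 71.7 and 67.5 CPM on D6, and 68.6 and 58.4 CPM on D8. The libraries of D2, D4 and D6 did not overlap one another, and those of D8 overlapped those of D6. Grem1 averaged 113 ± 19.5 CPM on D4 and 298 ± 14.3 CPM on D2 (SD, n = 2 each), a ratio of 0.378 and a log2 change of -1.41 ± 0.10 (SE; limma, adjusted p = 4.8e-08). A second fall followed, with a log2 change of -0.68 for D6 against D4 (limma, adjusted p = 1.6e-04), and D8 against D6 was not called at -0.13 (adjusted p = 0.41). On D8 Grem1 stood at 0.213 of its D2 level (log2 change -2.22 ± 0.10, limma adjusted p = 2.8e-10). Even so, at 15.3 CPM per kb on D8 it remained above Bmp2 and Bmp4 in level per length.

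Bambi (chr18:3507923-3516404, plus strand), the pseudoreceptor gene, was not called in any comparison of the values as deposited. It had 7.49 and 6.52 CPM on D2, 7.54 and 8.82 CPM on D4, 6.97 and 6.39 CPM on D6, and 7.47 and 5.43 CPM on D8. The libraries of D8 overlapped those of D6 and of D2. The log2 change for D8 against D2 was -0.11, with a 95% interval of -0.41 to 0.18, and the F test gave an adjusted p of 0.18. Under quantile normalization Bambi was called lower on D8 than on D2 (log2 change -0.54, adjusted p = 0.0042), and over all 16 alternatives that adjusted p ran from 0.0042 to 0.90.

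Smad6 (chr9:63953076-64022059, minus strand), the inhibitory SMAD gene and itself a BMP target, stood highest on D6. It had 8.88 and 9.46 CPM on D2, 8.94 and 9.23 CPM on D4, 11.6 and 11.6 CPM on D6, and 10.7 and 10.05 CPM on D8. D4 lay within the range of D2, and D6 lay above every other day. Smad6 averaged 11.6 ± 0.0202 CPM on D6 and 9.08 ± 0.203 CPM on D4 (SD, n = 2 each), a ratio of 1.28 and a log2 change of 0.32 (limma, adjusted p = 0.013). That call was lost without D4 replicate 1 (adjusted p = 0.051), without D6 replicate 1 (adjusted p = 0.060), without D6 replicate 2 (adjusted p = 0.057) and after quantile normalization (adjusted p = 0.087). For D8 against D2 its log2 change was 0.16 and not called, which is -0.01 relative to the median of all genes.

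**Figure D2:**
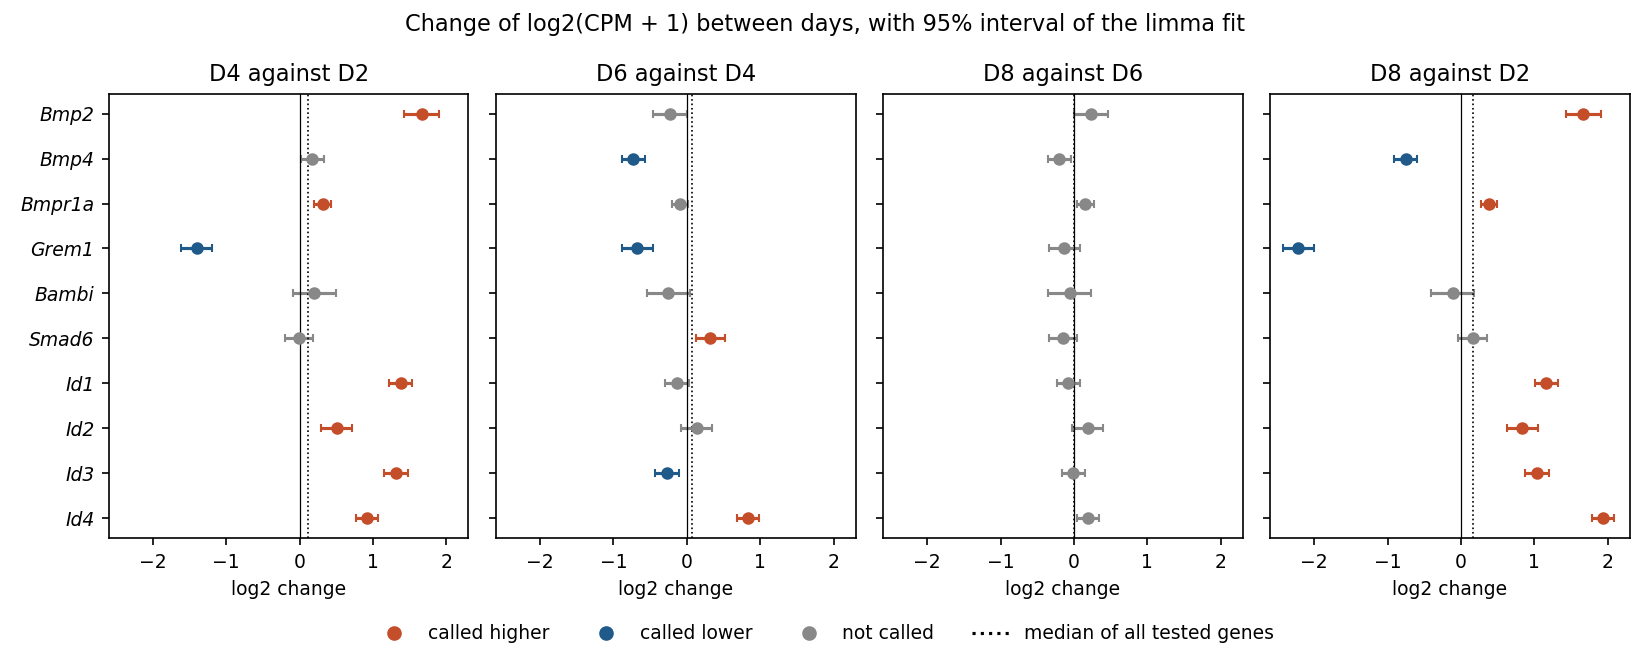
Change of log2(CPM + 1) of each gene in the 3 steps between neighbouring days and over the whole span (D8 against D2), positive where the later day is higher. Points are limma estimates with 95% intervals, colour gives the call, and the dotted line is the median of all tested genes. For D8 against D2 the largest rise is Id4 at 1.93 and the largest fall Grem1 at -2.22, while for D8 against D6 no gene is called.

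The 4 Id genes, direct targets of BMP signalling in many cell types, all rose by D4 and then took different courses. Id1 and Id3 had their highest values on D4, whereas Id2 and Id4 had theirs on D8. In each of the 4 genes the 2 libraries of D2 lay below all 6 libraries of the later days. Libraries without overlap, in either direction, were common among all tested genes. Their share was 81.3% for D4 against D2, 85.9% for D6 against D2 and 85.7% for D8 against D2. Every Id gene was called higher on D4 than on D2 and on D8 than on D2 under all 16 alternative settings, which include 2 other scalings and leaving out each library. Fewer cells of a type and less RNA per cell cannot be told apart in such bulk samples.

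Id1 (chr2:152736251-152737410, plus strand) had 24.7 and 21.4 CPM on D2, 63.2 and 59.2 CPM on D4, 55.5 and 55.7 CPM on D6, and 55.4 and 50.3 CPM on D8. It averaged 61.2 ± 2.87 CPM on D4 and 23.0 ± 2.36 CPM on D2 (SD, n = 2 each), a ratio of 2.66 and a log2 change of 1.37 ± 0.07 (SE; limma, adjusted p = 4.2e-09). After D4 the level eased: D8 against D4 gave a log2 change of -0.21 (limma, adjusted p = 0.034), a call that was lost in 4 of 16 alternatives, among them leaving out D4 replicate 1 or D8 replicate 2. The days D6 and D8 did not overlap but were not called apart, at -0.07 (adjusted p = 0.57). On D8 Id1 still stood at 2.29 times its D2 level.

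Id3 (chr4:136143497-136145755, plus strand) followed nearly the same course. It had 31.99 and 29.1 CPM on D2, 81.8 and 73.2 CPM on D4, 66.2 and 61.8 CPM on D6, and 67.2 and 60.3 CPM on D8. On D4 the mean was 2.54 times that on D2 (log2 change 1.31 ± 0.07, SE; limma, adjusted p = 6.6e-09). The D6 libraries both lay below those of D4, with a log2 change of -0.27 (limma, adjusted p = 0.012). That step was not called without D4 replicate 1 (adjusted p = 0.094), without D6 replicate 2 (adjusted p = 0.093) or with no filter on low values (adjusted p = 0.079). The D8 libraries overlapped those of D6, and on D8 Id3 stood at 2.09 times its D2 level.

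Id2 (chr12:25093799-25097140, minus strand) rose in smaller steps. Its libraries had 8.31 and 9.01 CPM on D2, 12.0 and 13.4 CPM on D4, 13.9 and 14.2 CPM on D6, and 17.4 and 15.0 CPM on D8. No day overlapped its neighbour, but only the first step was called, with a ratio of 1.47 and a log2 change of 0.51 ± 0.10 (SE; limma, adjusted p = 5.2e-04). D8 against D2 gave a ratio of 1.88 and a log2 change of 0.83 (limma, adjusted p = 4.6e-06), 0.67 above the median of all genes.

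Id4 (chr13:48261228-48266026, plus strand) rose the most of the 10 genes over the whole span. It had 12.6 and 12.7 CPM on D2, 25.0 and 24.6 CPM on D4, 47.4 and 42.5 CPM on D6, and 50.7 and 51.9 CPM on D8. Each day lay above the day before with no overlap. Id4 averaged 24.8 ± 0.318 CPM on D4 and 12.7 ± 0.0485 CPM on D2 (SD, n = 2 each; log2 change 0.91, limma adjusted p = 1.0e-07). The next step was of like size, at 45.0 ± 3.42 CPM on D6 and 24.8 ± 0.318 CPM on D4 (log2 change 0.83, limma adjusted p = 1.7e-06). D8 against D6 was not called (0.19, adjusted p = 0.10), and on D8 Id4 stood at 4.05 times its D2 level (log2 change 1.93 ± 0.07, limma adjusted p = 3.4e-11). The antisense gene A330033J07Rik, which shares 82 exon bases with Id4, had 0.198 to 1.48 CPM, and Gm49291, on the strand opposite to Id4, shares 171.

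Per kilobase of exon, the 4 Id genes together amounted to 43.8 ± 2.96 CPM per kb on D2, 108 ± 5.54 on D4, 101 ± 2.36 on D6 and 101 ± 6.30 on D8 (SD, n = 2 each). Id1 and Id3 supplied most of it on every day. Id1 made up 45.3% ± 1.58 of the sum on D2, 49.0% ± 0.225 on D4, 47.4% ± 1.26 on D6 and 45.0% ± 0.270 on D8. Id3 made up 38.97% ± 0.0163 on D2, 40.2% ± 1.08 on D4, 35.3% ± 0.883 on D6 and 35.2% ± 0.483 on D8, so both shares were highest on D4. Id2 made up 8.15% ± 1.02 on D2, 4.87% ± 0.628 on D4, 5.71% ± 0.235 on D6 and 6.58% ± 0.277 on D8. Id4 made up 7.55% ± 0.540 of the sum on D2, 5.98% ± 0.231 on D4, 11.5% ± 0.609 on D6 and 13.2% ± 1.03 on D8. The mean summed level was highest on D4. On D8 the mean shares of Id4 and Id2 were higher than on D4, and those of Id1 and Id3 lower. No test was made of these sums and shares, and they depend on the length used. The merged exons of Id2 hold 2438 bases, while its coding transcripts hold 958 to 1969. For Id3 they hold 1791 bases, against 1278 in its coding transcript.

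**Figure D3:**
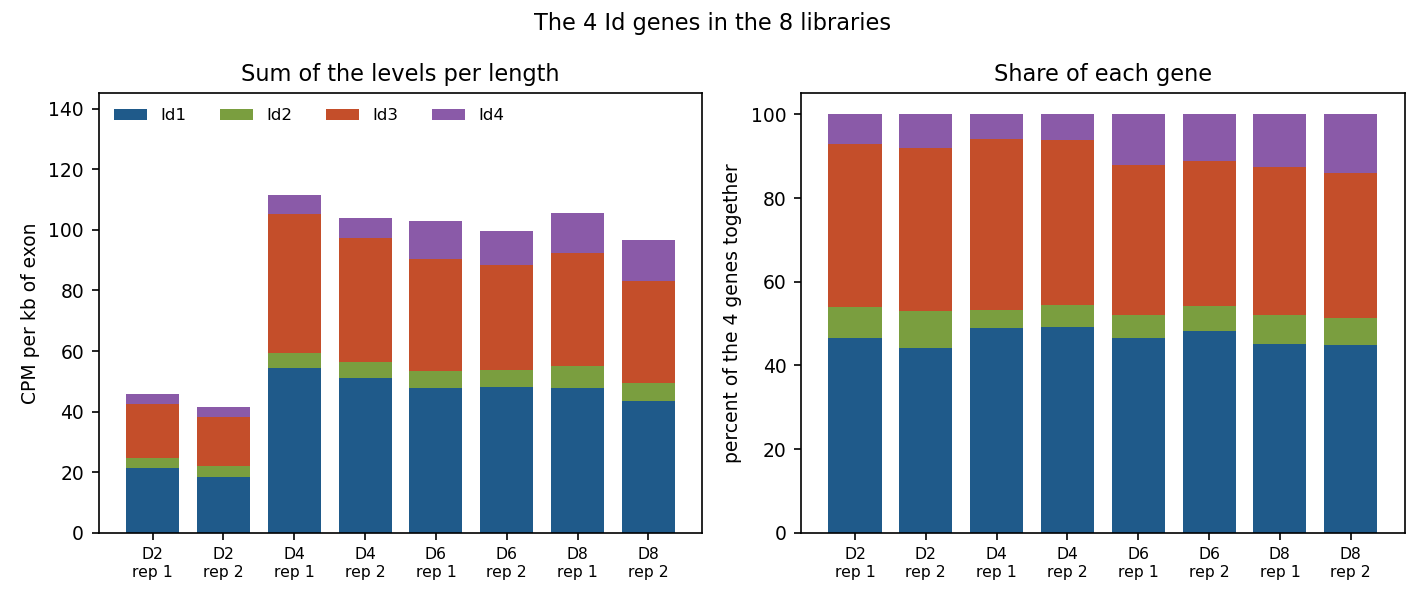
The 4 Id genes in each of the 8 libraries, by day and replicate. The left panel stacks their levels per length (CPM per kb of exon), and the right panel gives each gene's percent of that sum. The sum is 43.8 CPM per kb on D2 and 108 on D4, and the share of Id4 is 5.98% on D4 and 13.2% on D8.

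Markers of other cell types moved over the same days. Endothelial cells are known for high Id1 and Id3, and the summed endothelial markers ran at 69.4 to 71.8 CPM on D2, 104 CPM on D4, 148 to 160 CPM on D6 and 165 to 166 CPM on D8. Nearly all of that sum was Tek, at 64.3 to 163 CPM, while 4 of the 8 markers stayed under 1 CPM in every library, Cdh5 reached at most 0.448 CPM and Pecam1 at most 1.29 CPM. The epithelial markers summed to 7.30 to 9.34 CPM on D2, 41.1 to 49.1 CPM on D4, 110 to 134 CPM on D6 and 162 to 172 CPM on D8, carried by Krt8 and Cdh1, with 4 of 8 markers under 1 CPM in every library and Epcam at 0.0496 to 0.974 CPM. The smooth muscle markers summed to 3027 to 3136 CPM on D2, 675 to 687 CPM on D4, 684 to 777 CPM on D6 and 800 to 956 CPM on D8, so their fall and the first fall of Grem1 lay between the same days. The part of these cell types in the changes of the 10 genes was not tested.

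The other genes of the pathway, 60 in 5 lists by role, went both ways. The filter on low values left 48. For D4 against D2, 22 were called higher and 17 lower (40.9% and 21.7% of all tested genes). For D6 against D4, 8 were called higher and 12 lower (25.2% and 12.6% of all tested genes). For D8 against D6, 2 were called higher and 0 lower (4.72% and 4.39% of all tested genes). For D8 against D2, 21 were called higher and 20 lower (47.3% and 23.1% of all tested genes). At an unadjusted p under 0.05 in limma the D8 against D6 counts were 7 higher and 9 lower. The share of all tested genes at that unadjusted level was not taken. The median log2 change of the 48 genes for D4 against D2 was 0.13, near the 0.11 of all tested genes. The D6 against D4 counts of the pathway genes became 4 higher and 19 lower after median-of-ratios scaling. Over all 15358 tested genes that scaling gave 2637 higher and 2984 lower, against 3864 and 1928 as deposited. Bmp15 and Sostdc1, the 2 genes called for D8 against D6, both had under 5 CPM and were singled out after their values were seen, and neither was called without D6 replicate 2 or D8 replicate 2. Bmp15 had 3.93 ± 0.822 CPM on D8 and 2.18 ± 0.256 CPM on D6, and Sostdc1, a secreted BMP and Wnt antagonist, had 3.60 ± 0.351 CPM on D8 and 1.95 ± 0.220 CPM on D6 (SD, n = 2 each).

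Among the 12 other ligand genes 8 were tested, and on D8 against D2 5 were called higher and 3 lower, against 47.3% and 23.1% of all tested genes. Bmp6 was the most abundant of these, at 31.7 ± 1.07 CPM on D8 and 23.0 ± 1.64 CPM on D2, a log2 change of 0.45. Bmp8b fell early, to 2.33 ± 0.294 CPM on D4, against 6.93 ± 0.486 CPM on D2. Bmp7, a broadly acting ligand, did not pass the filter, with at most 0.618 CPM.

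Of 9 tested receptor and coreceptor genes, 5 were called higher and 2 lower on D8 than on D2, against the same shares of all tested genes. Eng, which encodes the coreceptor endoglin, had 200.4 ± 7.08 CPM on D8 and 53.9 ± 1.39 CPM on D2 (log2 change 1.87), and Rgma, a BMP coreceptor gene, had 41.1 ± 1.89 CPM on D8 and 14.7 ± 0.289 CPM on D2 (log2 change 1.43). Acvrl1, the type I receptor gene known for endothelial signalling, had 55.2 ± 0.742 CPM on D4 and 36.2 ± 1.05 CPM on D2. Bmpr1b, the other BMP type I receptor gene, went the other way from Bmpr1a, with 3.65 ± 0.304 CPM on D8 and 9.72 ± 0.415 CPM on D2 (log2 change -1.21). Acvr1, a further type I receptor gene, had 55.1 ± 2.00 CPM on D6 and 63.7 ± 0.253 CPM on D4.

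Of 13 tested genes of secreted antagonists and modulators, 7 were called higher and 5 lower on D4 than on D2, against 40.9% and 21.7% of all tested genes. Fstl3, an activin-binding follistatin relative, fell to 9.67 ± 0.364 CPM on D4, against 25.9 ± 1.36 CPM on D2, and Crim1, which encodes a membrane protein that binds BMPs, fell to 60.9 ± 4.26 CPM on D4, against 106.5 ± 5.05 CPM on D2. Crim1 was at 46.9 ± 1.59 CPM on D8. Kcp had the largest rise of the list on the log2(CPM + 1) scale, to 17.3 ± 0.0824 CPM on D4, against 4.58 ± 0.580 CPM on D2, and its product is known in mouse to enhance BMP signalling rather than block it. Chrd, Fstl1 and Twsg1 were called higher on D4 than on D2 and lower on D6 than on D4. Chrd, the gene of the antagonist chordin, had 17.1 ± 0.241 CPM on D6 and 24.1 ± 1.32 CPM on D4. Fstl1 had 2073 ± 5.31 CPM on D6 and 2819 ± 13.6 CPM on D4, and Twsg1 had 104 ± 1.12 CPM on D6 and 134 ± 3.40 CPM on D4.

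All 10 genes of SMADs and intracellular regulators were tested, and 2 were called higher and 5 lower on D8 than on D2, against 47.3% and 23.1% of all tested genes. The SMADs that BMP receptors phosphorylate moved apart: Smad5 had 122 ± 0.165 CPM on D4 and 77.9 ± 0.859 CPM on D2 (log2 change 0.64), whereas Smad1 had 18.8 ± 1.01 CPM on D4 and 34.5 ± 0.321 CPM on D2 (log2 change -0.85) and 13.7 ± 1.59 CPM on D8. Smad7, the second inhibitory SMAD gene and also a target of TGF-beta, fell to 9.56 ± 0.470 CPM on D8, against 30.6 ± 1.25 CPM on D2 (log2 change -1.58). Smad6 was not called over that span, and the difference between Smad6 and Smad7 was not tested. Skil, a SMAD corepressor gene, had 58.8 ± 3.06 CPM on D8 and 86.9 ± 2.24 CPM on D2, and Smad4 differed in 1 step, with 94.2 ± 1.36 CPM on D6 and 82.7 ± 5.05 CPM on D4.

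Of 8 tested target genes other than the Id genes, 3 were called higher and 5 lower on D8 than on D2, against 47.3% and 23.1% of all tested genes. Their median log2 change over that span was -0.92, against 0.17 for all tested genes. Atoh8 and Gata2, transcription factor genes, rose to 7.68 ± 0.0638 and 35.2 ± 0.0923 CPM on D8, against 1.74 ± 0.00506 and 11.9 ± 0.246 CPM on D2. The homeobox genes Msx1 and Msx2, classical BMP targets, went opposite ways: Msx1 had 25.5 ± 1.70 CPM on D4 and 7.57 ± 0.0659 CPM on D2, and Msx2 had 3.10 ± 0.416 CPM on D4 and 9.62 ± 0.483 CPM on D2. Hes1, which also answers to Notch, had 47.1 ± 1.82 CPM on D6 and 98.9 ± 4.56 CPM on D4.

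The genes whose products Id proteins bind were also measured. Of 11 listed E protein and bHLH genes 6 were tested, and 5 were called higher and 0 lower on D4 than on D2, against 40.9% and 21.7% of all tested genes, with Twist2 short of the threshold at a log2 change of -0.19. Tcf12 had 252 ± 6.67 CPM on D4 and 189 ± 5.74 CPM on D2, Twist1 had 110 ± 0.740 CPM on D4 and 82.7 ± 1.54 CPM on D2, and Hand2 had 12.0 ± 0.654 CPM on D4 and 5.85 ± 0.562 CPM on D2. By D8, Twist2 was called lower, at 10.1 ± 0.854 CPM on D8 and 16.9 ± 0.285 CPM on D2. Tcf3, which encodes the E2A proteins, had 107 ± 4.16 CPM on D8 and 121 ± 0.846 CPM on D6, and Tcf4 had 227 ± 10.9 CPM on D6 and 248 ± 3.18 CPM on D4. The muscle bHLH genes Myod1, Myf5 and Myog were at 0 to 0.0516 CPM. At an unadjusted p under 0.05 the D4 against D2 counts of these genes were likewise 5 higher and 0 lower in limma. The share of all tested genes at that unadjusted level was not taken.

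**Figure D4:**
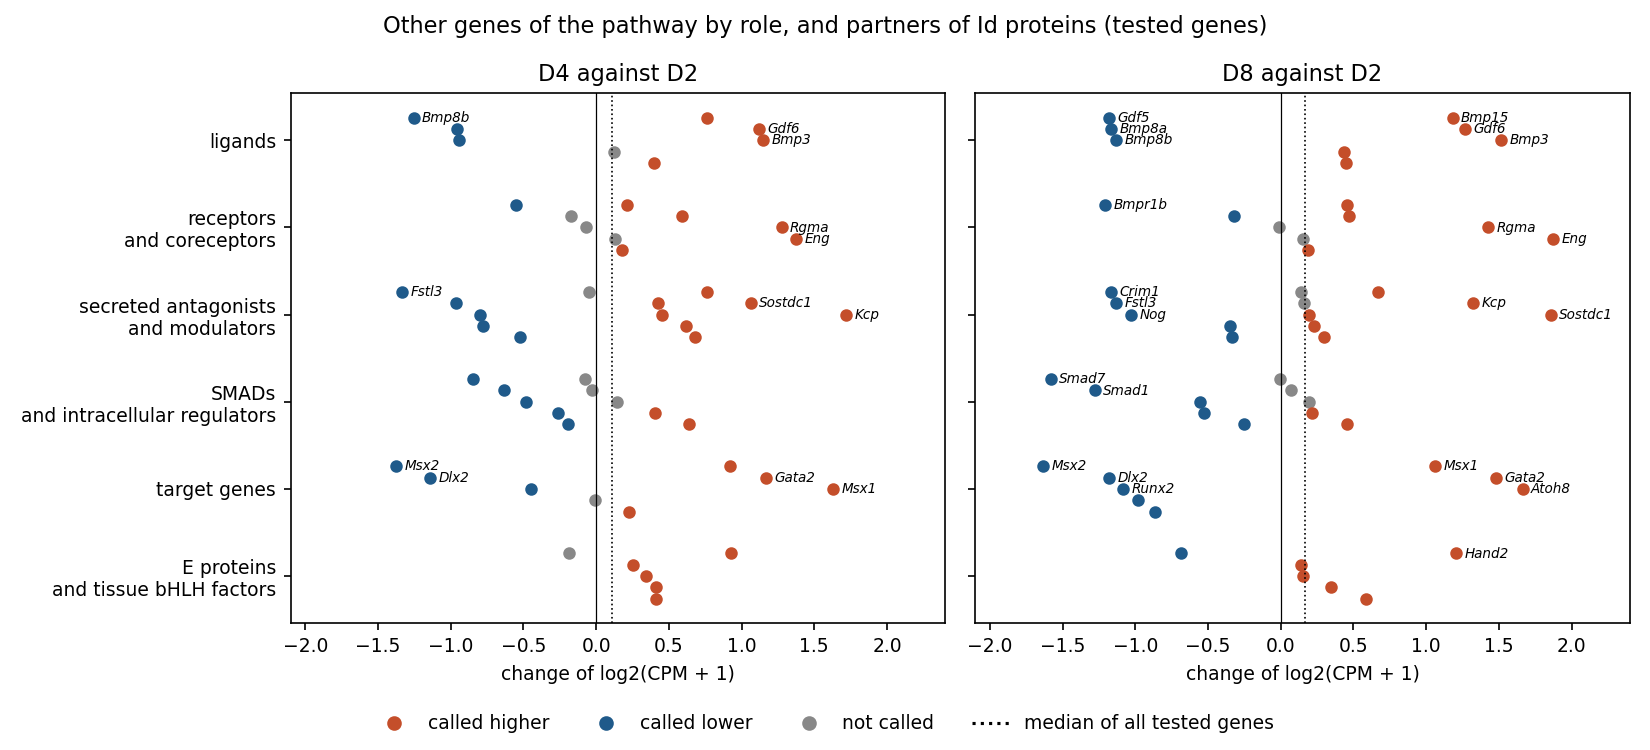
Change of log2(CPM + 1) of the tested genes of the 5 pathway lists and of the Id partner list, for D4 against D2 and D8 against D2, positive where the later day is higher. Each point is a gene, colour gives the limma call, the dotted line is the median of all tested genes, and genes that moved by more than 1 are named. Eng lies at 1.87 and Smad7 at -1.58 for D8 against D2, and each list holds genes on both sides of 0.

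For the members whose day means spanned at least 1 on the log2 scale, the genes with the most similar course were found. The measure was the root mean square (RMS) difference of the 4 day means of log2(CPM + 1), each gene centred on its own mean. The candidates were 11234 tested genes with a mean of at least 5 CPM. Genes without a symbol and gene models (Gm number or Rik names) were left out. The ranks and differences are descriptions over 4 days, with no test. The closest to Bmp2 were H19, an imprinted noncoding RNA, at an RMS difference of 0.0195, Mir675, which lies within H19, at 0.0271, and the interleukin-1 receptor gene Il1r1 at 0.0445. Closest to Grem1 were the mitochondrial folate enzyme gene Mthfd2 at 0.0573, the phosphatase gene Dusp10 at 0.0646 and Filip1l at 0.0683. For Id1 they were Ch25h at 0.0333, Scarf2 at 0.0369 and the tight junction gene Cldn1 at 0.0442, and for Id3 the amino acid transporter gene Slc43a2 at 0.0281, Adgrg2 at 0.0361 and Colec12 at 0.0418. Id1 and Id3 differed from each other by an RMS of 0.0728, which put Id3 at rank 20 from Id1 and Id1 at rank 17 from Id3. Id4 was closest to P4htm at 0.0218, the glutathione transferase gene Gstm1 at 0.0328 and the MHC gene H2-T23 at 0.0462, and Id1 stood at rank 1423 from it.

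Promoter sequences are shown for 3 Id genes, which all rose by D4, and for Grem1, which fell most. Each is the 250 bases before the transcription start in RefSeq (GRCm38.p6), 5′ to 3′ on the gene's strand, and capitals mark GGCGCC and GGAGCC on either strand (GGAGCC on the other strand reads GGCTCC), GC-rich motifs known to be bound by SMAD1 and SMAD5 complexes.
Id2 (chr12:25096093-25096342, minus strand): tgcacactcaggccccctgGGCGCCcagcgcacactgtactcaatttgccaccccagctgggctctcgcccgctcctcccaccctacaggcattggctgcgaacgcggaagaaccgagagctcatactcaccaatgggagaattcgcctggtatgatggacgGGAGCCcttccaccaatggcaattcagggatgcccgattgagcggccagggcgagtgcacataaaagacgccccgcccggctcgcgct
Id3 (chr4:136143572-136143821, plus strand): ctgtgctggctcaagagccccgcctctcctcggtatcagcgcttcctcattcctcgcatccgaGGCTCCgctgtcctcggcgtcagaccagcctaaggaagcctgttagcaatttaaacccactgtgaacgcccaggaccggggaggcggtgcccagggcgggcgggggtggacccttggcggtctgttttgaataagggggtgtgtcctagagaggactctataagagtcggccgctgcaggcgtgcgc
Id4 (chr13:48260866-48261115, plus strand): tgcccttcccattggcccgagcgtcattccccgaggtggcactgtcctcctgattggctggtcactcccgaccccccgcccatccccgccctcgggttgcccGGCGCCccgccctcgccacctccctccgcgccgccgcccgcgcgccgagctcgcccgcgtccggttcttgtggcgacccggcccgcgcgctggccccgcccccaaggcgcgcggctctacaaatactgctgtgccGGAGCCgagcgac
Grem1 (chr2:113758649-113758898, minus strand): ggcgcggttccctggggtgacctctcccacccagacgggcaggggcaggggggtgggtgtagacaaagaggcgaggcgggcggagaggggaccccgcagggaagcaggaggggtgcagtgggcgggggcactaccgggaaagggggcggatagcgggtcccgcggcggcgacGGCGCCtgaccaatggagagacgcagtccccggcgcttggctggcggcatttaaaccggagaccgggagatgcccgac
Counted from the start, the first base of GGCGCC lies at -231 in Id2, -148 in Id4 and -78 in Grem1, and GGAGCC lies at -88 in Id2, -187 in Id3 and -13 in Id4. The Id2 and Id3 stretches lie within the GENCODE M21 bounds of these genes given above. The Id4 stretch ends at 48261115, before the GENCODE M21 start of Id4 at 48261228. The motif positions of these 3 Id genes therefore depend on the start chosen. Of the 10 genes 7 matched an entry: Bmp4, Bmpr1a, Grem1, Smad6, Id2, Id3 and Id4. In windows of 300 bases that also hold 50 bases after the start, GGCGCC was in 4 of these 7 and in 12.0% of 27025 promoters, and GGAGCC was in 5 of 7 and in 30.5%. The 7 windows held 60.0% to 79.3% G and C, above the median of 52.7% of all promoters, and a match in letters says nothing of binding in these cells. Grem1, which fell, and Id4, which rose, both hold GGCGCC.

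Scaling moved the size of the changes but not the direction of the larger ones. After median-of-ratios scaling the D8 against D2 log2 change was 1.75 for Id4, 0.98 for Id1, 0.85 for Id3, 0.66 for Id2, 1.51 for Bmp2, -0.94 for Bmp4 and -2.41 for Grem1. After quantile normalization it was 1.68 for Id4, 0.95 for Id1, 0.84 for Id3, 0.47 for Id2, 1.26 for Bmp2, -0.99 for Bmp4 and -2.16 for Grem1. Only Smad6 changed sign for D8 against D2 among the 10 genes under these scalings, at -0.01 and -0.22 (adjusted p = 0.90 and 0.042), against 0.16 as deposited.

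**Figure D5:**
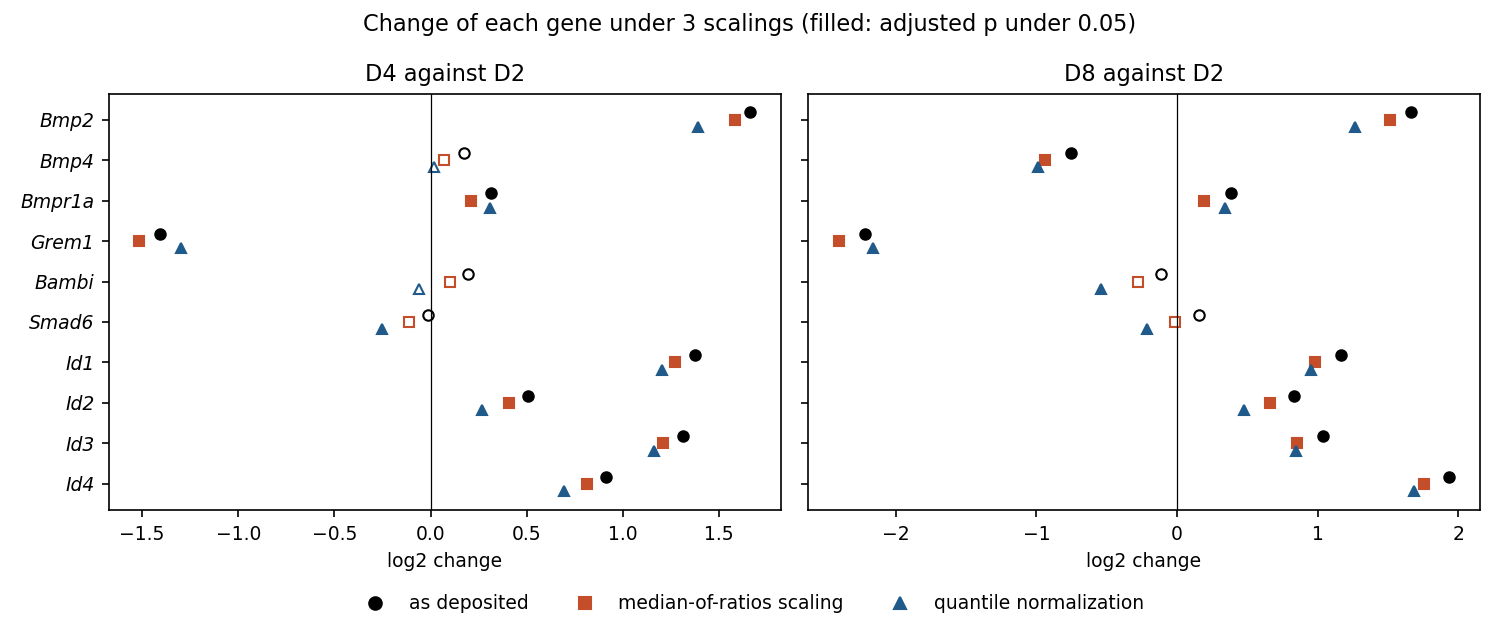
Log2 change of each gene for D4 against D2 and D8 against D2 with the values as deposited, after scaling by median of ratios, and after quantile normalization, positive where the later day is higher. Filled symbols have an adjusted p under 0.05. Id4 stays between 1.68 and 1.93 and Grem1 between -2.41 and -2.16 for D8 against D2, while Smad6 lies at 0.16, -0.01 and -0.22.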

How the data were processed

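RNA of 8 libraries, 2 for each of days 2, 4, 6 and 8, was sequenced on a BGISEQ-500, per the labels. The submitters' processing notes name Trimmomatic 0.39, featureCounts and mm10. Of the aligner, annotation release and strand setting the sources used here say nothing. The authors deposited 1 table of 32108 genes whose name says TPM but whose columns each sum to 1000000 with no division by length, so the values are treated as CPM. Between 52.8% and 54.3% of the values above 0 were whole reads, so counts were not recovered. Identifiers were matched to GENCODE M21. The 15358 genes that reached 1 CPM in 2 or more libraries were fitted on the log2(CPM + 1) scale in limma 3.58.1 (R 4.3.3), with a coefficient per day, an intensity trend and 4 residual degrees of freedom. The test was limma's moderated two-sided test, with Benjamini-Hochberg adjustment over all tested genes. The fit was tested on simulated data. Folds are ratios of mean CPM, and a log2(CPM + 1) change understates that of low genes. The genes and lists were chosen with earlier results of these data known. A pair of listed genes is not reported here and was left out of the lists' counts. From each list the text names up to 3 called genes a comparison with the largest change and at least 5 CPM. The alternatives were a pseudocount of 0.1, no filter, a filter of 5 CPM, 2 other scalings, the replicate number as a term, no trend, only the 2 days compared, and leaving out each library.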

Additional observations from a re-analysis of the deposited data

How the results depend on the processing

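Whether the replicate numbers pair the libraries across days cannot be decided here, with a single difference between replicates on each day. Deviations of same-numbered libraries correlated at -0.10 to 0.21 over genes, with 1 of 6 pairs of days over 0.1. With the replicate number as a block, 6 genes were higher and 1 lower for D4 against D2, 2 and 3 for D6 against D4, and 6 and 2 for D8 against D2, and the block changed no call of the 10 genes.

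Over the 10 genes, 6 day pairs and 16 alternatives, 908 values kept direction and call, 20 lost the call, 16 gained it and 16 changed sign, and the cause was not tested. After median-of-ratios scaling, 6 of the 10 genes were lower for D6 against D4 (3 as deposited). Of the pathway genes 4 were then higher and 19 lower (8 and 12 as deposited). Of all 15358 tested genes 2637 were higher and 2984 lower (3864 and 1928 as deposited). After quantile normalization, 1 of the 10 genes was higher and 5 were lower for D6 against D4. For D4 against D2, 2 were lower, and for D8 against D2, 4 were lower. Of the pathway genes 5 were higher and 19 lower for D6 against D4, and 1 was lower for D8 against D6. Of all tested genes 2681 were higher and 2942 lower for D6 against D4. Genes called lower numbered 4958 for D4 against D2 (3330 as deposited) and 5876 for D8 against D2 (3549). For D8 against D6 they numbered 712 (674 as deposited). The 2 pathway genes higher for D8 against D6 became 0 with a pseudocount of 0.1, no filter or a filter of 5 CPM, and 1 without the trend.

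Leaving out each library in turn gave 1 to 2 of the 10 genes higher and 2 to 3 lower for D6 against D4, with Smad6 lost without D4 replicate 1, D6 replicate 1 or D6 replicate 2. Pathway genes higher ranged from 4 to 8 for D6 against D4, with 5 without D4 replicate 1 and 4 without D6 replicate 1, and from 0 to 3 for D8 against D6, with 0 without D6 replicate 2 or D8 replicate 2.

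The log2 changes that turned sign were none of them called as deposited, except Smad6 for D6 against D2. After median-of-ratios scaling they were -0.0131 for Smad6 (D8 against D2), and -0.0706 for Bmp2 and -0.0155 for Bmpr1a (D8 against D4). After quantile normalization they were -0.22 for Smad6 (D8 against D2), -0.0478 for Smad6 (D6 against D2), -0.0618 for Bambi (D4 against D2) and -0.13 for Bmp2 (D8 against D4). Leaving out a library in turn, the change ran from -0.0537 to 0.0292 for Smad6 (D4 against D2), from -0.145 to 0.0290 for Bambi (D6 against D2), from -0.0670 to 0.0765 for Bmp2 (D8 against D4), from -0.0837 to 0.0690 for Id3 and from -0.255 to 0.142 for Bambi (D8 against D6), and from -0.313 to 0.0838 for Bambi (D8 against D2). With 2 libraries a day, the 95% interval of Bambi for D8 against D2, -0.41 to 0.18, holds both directions.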
